A study of Solanum lycopersicum with 36 samples.

Results

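The genes described here are the 200 tomato genes whose mRNA was highest late in the night, at Dark 8 h, by the widest margin over the next highest time. They were chosen from the 34075 gene identifiers of the series by their own mRNA values. CPM, the counts of a gene scaled to a common library total, was averaged over 3 replicates at each of 6 times, the 1919 genes with their highest mean at Dark 8 h and at least 10 CPM there were ranked by the gap in log2(mean CPM + 1) between Dark 8 h and the second highest time, and the first 200 were kept. The choice used mRNA, so mRNA values of these genes are given as a description with no test, and tests were run on GMUCT, a separate assay that the choice did not use. Leaves of tomato of the genotype labelled HeinZ 1706 were harvested at 4 weeks of age from plants grown at 25 °C under 12 h of light and 12 h of dark. All groups share that genotype, temperature and light regime, and they differ in the labelled time alone, which is Light 0, 4 or 8 h or Dark 0, 4 or 8 h. Each time has 3 libraries of polyadenylated RNA (mRNA) and 3 GMUCT libraries of total RNA, 36 libraries in all. The hour in a label was taken to run from the start of its phase, so that Dark 8 h is the last time before the lights come on and Light 0 h the next one.

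Leaves store starch in the light and break it down through the night, and many plant transcripts follow the circadian clock, some of them reaching their highest level before dawn. The steady level of an mRNA reflects both its synthesis and its loss. GMUCT (the mapping, genome-wide, of uncapped and cleaved transcripts) reads the 5' ends of RNA that has lost its cap or has been cut. Such ends arise in decapping, in cleavage guided by small RNAs and in decay that takes place during translation. A GMUCT read marks an end, so its count measures neither the length of a fragment nor a rate of decay.

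The reference table of 41476 tomato genes holds 0 of the 34075 identifiers, so no gene below has a name, a function or a printed sequence, and markers of leaf cell types could not be checked. Gene counts ranged from 6632784 to 27126312 per mRNA library and from 15739253 to 20581411 per GMUCT library. The shallowest library was the first mRNA replicate of Dark 4 h. Reads placed at several positions took 8.60 to 40.2% of GMUCT reads, and 26.6, 21.6 and 11.6% in the GMUCT libraries of Dark 8 h. Nothing in the labels ties replicates to separate plants, and p-values then cover only the spread between libraries, which may be technical. The sample titles also do not say whether mRNA and GMUCT libraries of a time came from the same leaves. Variation shared by the assays was not tested. Bulk leaf RNA was used, so a change in the RNA of a cell and a change in the share of a cell type cannot be told apart.

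The 200 genes exceeded their second highest time in mRNA by a small margin. The median gap was 0.43 on the log2(CPM + 1) scale, a 1.35-fold difference, with quartiles of 0.36 and 0.57 (1.28-fold and 1.48-fold). At least 1.5-fold was reached by 46 of the 200 genes (23%) and at least 2-fold by 6 (3.00%). These are folds of CPM + 1, which are smaller than the folds of CPM itself. The largest gap was 2.14 and the smallest 0.33. Just inside the end of the list, Solyc08g006570 had a gap of 0.328 and Solyc02g094120 of 0.327. Just outside it, Solyc02g087760 and Solyc07g065260 both had 0.326.

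Lists of 200 genes made by the same rule for the other times had wider gaps in their medians. The median was 0.43 at Dark 8 h, against 0.48, 1.49 and 1.09 at Light 0, 4 and 8 h and 1.31 and 0.84 at Dark 0 and 4 h. In 54 of the 200 genes highest at Dark 8 h (27.0%) all 3 Dark 8 h libraries lay above the 15 libraries of other times, a pattern that 0.695% of the 19711 genes tested in mRNA showed. The rule favours that pattern, so nothing is read from the difference. In the lists of other times it was met by 120 genes at Light 0 h, 200 genes at Light 4 h, 184 genes at Light 8 h, 183 genes at Dark 0 h and 112 genes at Dark 4 h. "Specific to Dark 8 h" therefore describes these genes only weakly, and they are called here genes highest at Dark 8 h.

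**Figure D1:**
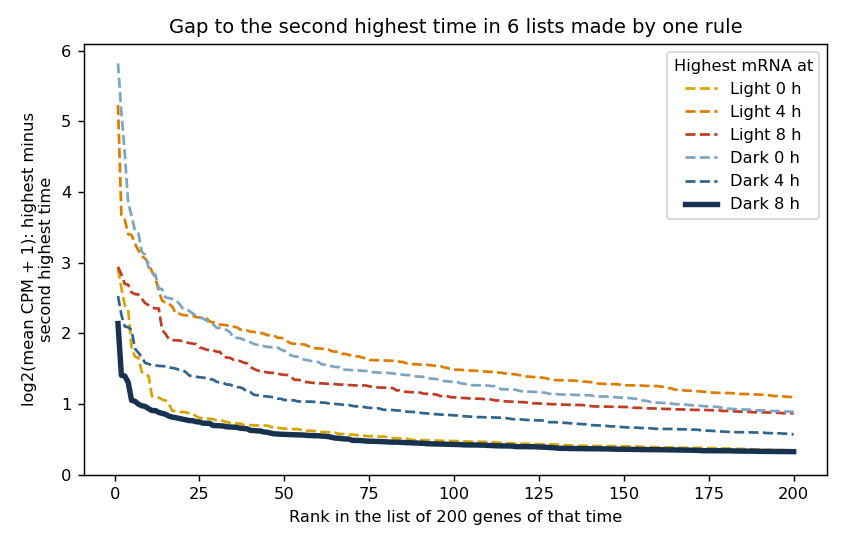
Gap between the highest and the second highest time in mRNA, in log2(mean CPM + 1), against rank in each of 6 lists of 200 genes, with the list of Dark 8 h as the solid line. The Dark 8 h line starts at 2.14 and ends at 0.33, and the Light 0 h line, which ends at 0.34, is the one nearest to it.

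The genes at ranks 1 and 2 had most of their Dark 8 h mRNA in a single library each. Solyc07g005630, at rank 1, had 29.7, 6.47 and 0.665 CPM of mRNA in the Dark 8 h libraries, against a lowest, median and highest value of 0, 0.115 and 5.97 CPM in the 15 libraries of other times. The first Dark 8 h library held 80.6% of the sum. The second also lay above every library of another time, by a small margin, and the third lay below the highest of them. Solyc12g044190, at rank 2, had 48.0, 3.63 and 7.13 CPM at Dark 8 h, against 0.778, 2.59 and 8.83 CPM as the lowest, median and highest of the others. Here 81.7% of the sum lay in the first library, and the other libraries were inside the range of the other times.

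Replicates lay close together in the gene at rank 3 and further apart in the gene at rank 4. Solyc03g113130, at rank 3, had 12.5, 12.6 and 12.0 CPM of mRNA at Dark 8 h, against 1.06, 3.47 and 5.11 CPM as the lowest, median and highest of the other libraries. Solyc03g114290, at rank 4, had 66.8, 83.4 and 52.4 CPM at Dark 8 h, against 3.35, 7.92 and 39.4 CPM. All Dark 8 h libraries of both genes were above every other library. These 2 genes were singled out after their values were seen.

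Across the list, 43 of the 200 genes (21.5%) had over 50% of their Dark 8 h sum in 1 of the 3 libraries, which was the first library in 13, the second in 1 and the third in 29. The third Dark 8 h library was the highest of the 3 in 108 of the 200 genes (54.0%), against 30.8% of all genes tested in mRNA. The first was the highest in 64 and the second in 28. With library sizes scaled by trimmed mean of M values (TMM), the third was the highest in 124, and all 200 genes still had their highest mean at Dark 8 h. When the list was made without the third library, 105 of the 200 genes were in it, against 137 without the first and 151 without the second. In all 3 of these lists stood 45 of the 200 genes, and 23 of the 45 were among the 54 without overlap. The part that the third library has in the choice of genes was not tested further.

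In 116 of the 200 genes (58.0%) the second highest time in mRNA was Light 0 h, the time that follows Dark 8 h. Dark 0 h was second in 31, Dark 4 h in 30, Light 8 h in 12 and Light 4 h in 11. The lowest time was Light 8 h in 97 genes and Light 4 h in 63, and in 117 genes (58.5%) these were the 2 lowest times. The median mRNA level over the 200 genes was 22.7 CPM at Light 0 h, 12.4 CPM at Light 4 h, 11.8 CPM at Light 8 h, 17.7 CPM at Dark 0 h, 18.6 CPM at Dark 4 h and 32.1 CPM at Dark 8 h. The range from the lowest to the highest time had a median of 1.72 on the log2 scale, with quartiles of 1.26 and 2.65. By these medians, the light hours at Light 4 h and Light 8 h lay furthest from Dark 8 h, and Light 0 h lay nearest.

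**Figure D2:**
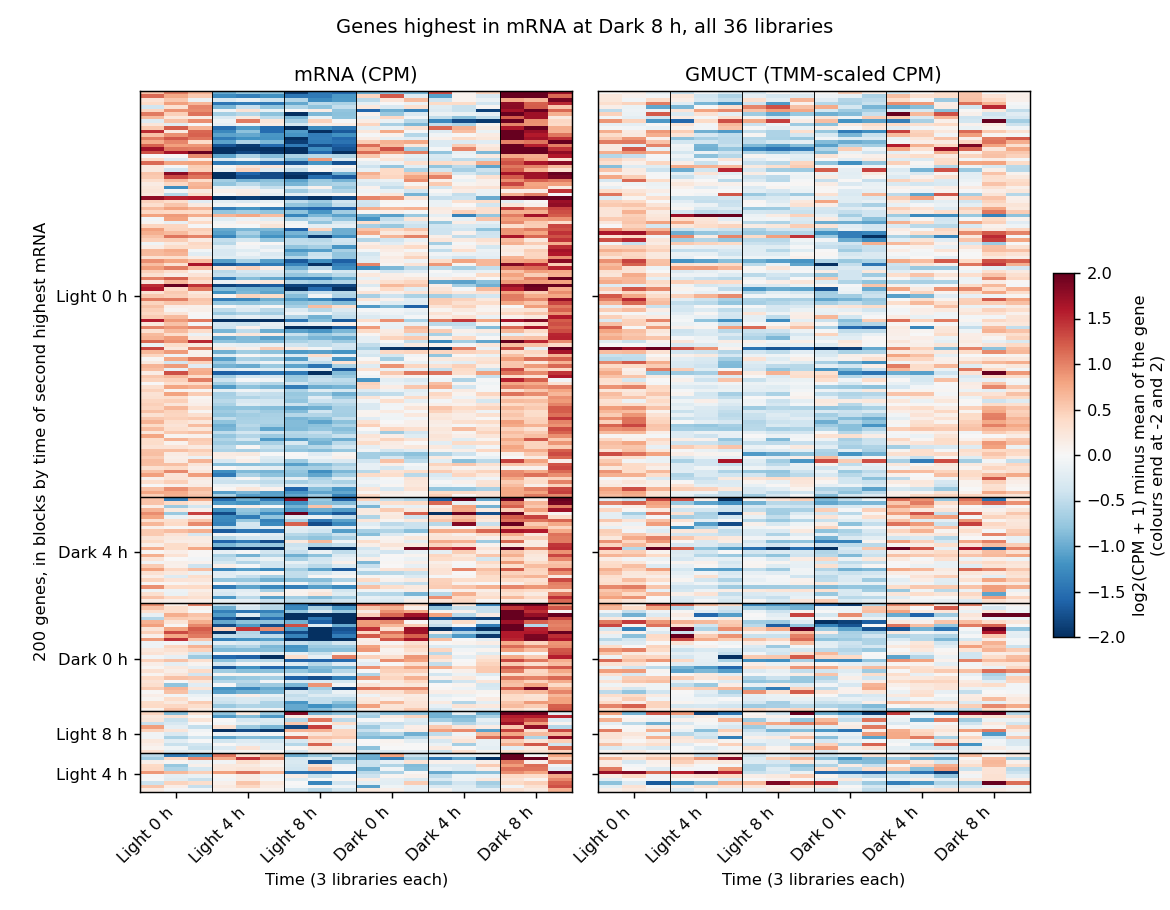
Colour gives log2(CPM + 1) minus the gene's own mean in mRNA (left) and GMUCT (right), with 200 genes down the page in blocks by the time of second highest mRNA and 18 libraries across each panel. The largest block, 116 genes, has Light 0 h second, and the Dark 8 h columns that stand out in the left panel do so less evenly in the right panel.

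Of the genes that did not pass the GMUCT test against the mean of the other times, the 2 with the highest mRNA CPM, which is not corrected for gene length, differed in shape. Solyc10g086410 had 1935, 2286 and 2887 CPM of mRNA at Dark 8 h, against 1714, 2167 and 1777 CPM at Light 0 h, its second highest time, and 382, 635 and 513 CPM at Light 8 h, its lowest. The Dark 8 h and Light 0 h libraries overlapped. Solyc02g084240 had 1824, 1644 and 1824 CPM at Dark 8 h, against 1439, 1131 and 1353 CPM at Dark 0 h, its second highest time, and 241, 331 and 258 CPM at Light 4 h, its lowest. Its Dark 8 h libraries did not overlap with those of any other time.

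In GMUCT, 197 of the 200 genes had enough reads to be tested. The 3 that did not were Solyc02g067440, gene:Solyc12g098603.1 and Solyc06g072290, at ranks 23, 27 and 42. Tests were edgeR's quasi-likelihood test over all 18 GMUCT libraries, with Benjamini-Hochberg adjustment over 20696 genes and a threshold of 0.05. The genes highest at Dark 8 h in mRNA had a median GMUCT level at Dark 8 h of 34.3 CPM. It was 17.8 CPM for all 19161 genes tested in both assays, on a scale that is not corrected for length. The rule set a floor of 10 CPM of mRNA for the 200 genes. The 19161 genes had no such floor, and their median mRNA at Dark 8 h was 12 CPM, so the 2 levels are not of like sets. Effects of the floor and of the GMUCT level on the share of genes called were not tested.

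GMUCT changed among the 6 times in 132 of the 197 genes (67.0%), against 58.4% of all genes tested. Without the replicates numbered 2 the count was 84. Against the mean of the other 5 times, GMUCT at Dark 8 h was higher in 69 of the 197 (35.0%), where the background was 13%, and lower in 1, where it was 11%. The median log2 change was 0.34, against 0.01 for all genes tested, and 157 of the 197 changes (79.7%) were above 0, against 50.5%. Without the second Dark 8 h GMUCT library 43 genes were higher. Of the 165 genes whose highest GMUCT mean was at least 10 CPM, 65 (39.4%) were higher. The background of 13% has no such floor, and its share above 10 CPM is not given. How far the GMUCT level enters the difference from the background was not tested. The mean of other times includes the midday times at which the mRNA of these genes was low.

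Of the 69 genes that were higher than the mean of the other times, 29 had their highest TMM-scaled GMUCT mean at Dark 8 h, 36 genes had it at Light 0 h and 4 genes at Dark 4 h. This split is not given for plain CPM or for all genes called, so nothing is read from its order. Over the 200 genes the order of Dark 8 h and Light 0 h depended on scaling, as given below. The share that was higher was 13% over all genes tested. It was 49 of 114 genes (43.0%) with Light 0 h second in mRNA and 11 of 30 (36.7%) with Dark 4 h second. With Dark 0 h second it was 7 of 30 (23.3%), and with Light 4 h or Light 8 h second 2 of 23 (8.7%). In ranks 1 to 50 it was 12 of 47 (25.5%) and in ranks 151 to 200 it was 24 of 50 (48.0%). Genes whose mRNA libraries at Dark 8 h lay above all others were called in 21 of 54 cases (38.9%), and the rest in 48 of 143 (33.6%). By the Dark 8 h mRNA library with the highest value, the counts were 17 of 63 (27.0%) for the first, 5 of 27 (18.5%) for the second and 47 of 107 (43.9%) for the third. Among genes in all 3 lists made without a library, 10 of 44 (22.7%) were called. These subsets were not tested against each other.

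Solyc06g054620, at rank 32, was the only gene that was higher than the mean of the other times with at least 10 CPM of GMUCT and no overlap between libraries. It had 10.6, 11.7 and 10.7 CPM of GMUCT at Dark 8 h, against 3.795, 7.36 and 10.01 CPM as the lowest, median and highest of the 15 other libraries. All 3 Dark 8 h libraries lay above the others, and its log2 change was 0.66 ± 0.15 (SE, 3 against 15 libraries; edgeR adjusted p = 0.00519). Against Dark 4 h, which came next with 9.39, 10.01 and 8.65 CPM, the gene changed by 0.233 ± 0.205 and did not pass (edgeR adjusted p = 0.576). Its mRNA was 7.94, 7.80 and 15.1 CPM at Dark 8 h, against 1.55, 3.63 and 9.24 CPM, and these overlapped in a Light 0 h library. The identifier next to it by number, Solyc06g054610, is also among the 200, and whether the 2 share reads could not be checked. The one other gene with no overlap in GMUCT was Solyc03g113130, with 0.561, 0.586 and 0.616 CPM at Dark 8 h, against 0, 0.253 and 0.447 CPM as the lowest, median and highest of the others. It had 11 reads in each Dark 8 h library, and its change of 1.37 ± 0.50 had an edgeR adjusted p of 0.0562. Together they are 1.02% of the 197 genes, against 0.275% of all genes tested.

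The gene that fell below the mean of the other times was Solyc04g072160, at rank 65. Its GMUCT was 5.71, 3.47 and 5.43 CPM at Dark 8 h, against 36.2, 52.1 and 44.8 CPM at Light 4 h, where it was highest, and 12.5, 14.9 and 12.3 CPM at Light 0 h. It was also low earlier in the night, with 8.89, 6.11 and 7.73 CPM at Dark 0 h and 5.97, 3.68 and 3.86 CPM at Dark 4 h. The change against the mean of the other times was -1.29 ± 0.20 (log2, SE; edgeR adjusted p = 0.000359) and against Light 0 h -1.44 ± 0.24 (edgeR adjusted p = 0.0012). Against Dark 4 h it was 0.109 ± 0.246 (edgeR adjusted p = 0.858), so the low level was not particular to Dark 8 h. In mRNA the gene was highest at Dark 8 h, with 134, 209 and 152 CPM at Dark 8 h, against 106, 112 and 101 CPM at Light 4 h and 115, 119 and 110 CPM at Light 0 h. No library of another time reached the Dark 8 h libraries in mRNA.

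**Figure D3:**
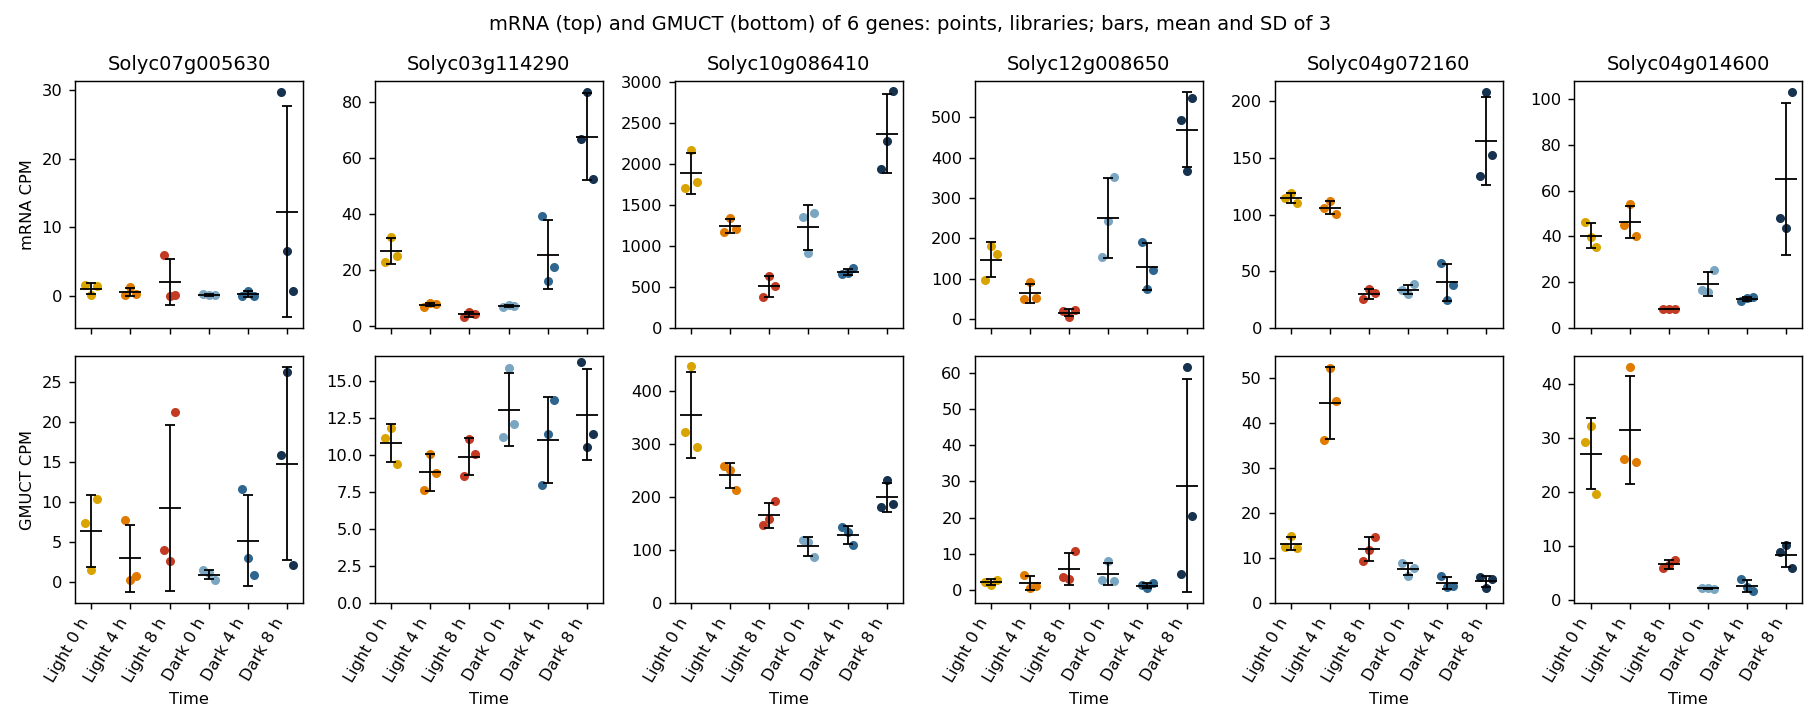
CPM of 6 genes at the 6 times in mRNA (top row) and TMM-scaled GMUCT (bottom row), with points for libraries and bars for the mean and SD of 3 libraries. Solyc04g072160 has 134 to 209 CPM of mRNA but 3.47 to 5.71 CPM of GMUCT at Dark 8 h, and Solyc07g005630 has 80.6% of its Dark 8 h mRNA in 1 of 3 libraries.

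Solyc12g008650, at rank 12, had the largest rise in GMUCT in all of the 3 contrasts, and was chosen for that after its values were seen. It had 4.49, 61.5 and 20.6 CPM of GMUCT at Dark 8 h, against 1.296, 0.518 and 1.83 CPM at Dark 4 h and 2.34, 1.37 and 2.85 CPM at Light 0 h. The Dark 8 h libraries lay above those of both times but spread widely among themselves. Of the 15 libraries of other times, 13 lay below all Dark 8 h libraries. A Light 8 h library with 10.85 CPM and a Dark 0 h library with 7.87 CPM exceeded the first Dark 8 h library. The log2 change was 3.43 ± 0.52 against the mean of the other times (edgeR adjusted p = 0.000249) and 2.23 without the second Dark 8 h library (adjusted p = 0.0195). It was 4.55 ± 0.93 against Dark 4 h (edgeR adjusted p = 0.0122) and 3.72 ± 0.89 against Light 0 h (edgeR adjusted p = 0.0173). Without the second Dark 8 h library these were 3.34 and 2.51 with edgeR adjusted p-values of 0.0701 and 0.116. Both calls were also lost without the first or the second library of the other time, with edgeR adjusted p-values of 0.0517 to 0.0858. In mRNA the gene had 494, 366 and 547 CPM at Dark 8 h, against 5.56, 97.7 and 351 CPM as the lowest, median and highest of the other libraries, with no overlap.

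Against Dark 4 h, the earlier time of the same night, GMUCT was higher at Dark 8 h in 11 of the 197 genes (5.58%, background 1.81%) and lower in 2 (1.02%, background 2.38%). The median log2 change was 0.20, against -0.01 for all genes tested, and 141 of the 197 (71.6%) were above 0, against 49%. The counts of calls rest on single libraries. Those higher were 2 without the second Dark 8 h library or without the first Dark 4 h library, 4 without the second and 6 without the third Dark 4 h library, and 18 without the first Dark 8 h library, and DESeq2 called 24 with all libraries. Those lower were 1 without the first or the third Dark 8 h library or the third Dark 4 h library. They were 0 by edgeR without the second Dark 8 h library or without the first Dark 4 h library, where 6 had an unadjusted p under 0.05, and 4 by DESeq2 with all libraries. A fit of these 2 times alone called 0 genes either way by edgeR, with 40 higher and 9 lower at an unadjusted p under 0.05.

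The genes that fell against Dark 4 h were Solyc02g062960 and gene:Solyc01g010185.1, at ranks 17 and 189. Solyc02g062960 had 1.73, 0.906 and 1.18 CPM of GMUCT at Dark 8 h, against 9.44, 2.99 and 5.14 CPM at Dark 4 h, with no overlap (log2 change -2.20 ± 0.53; edgeR adjusted p = 0.0291). gene:Solyc01g010185.1 had 23, 24.4 and 31.9 CPM at Dark 8 h, against 42.8, 40.1 and 39.0 CPM at Dark 4 h, also with no overlap (-0.62 ± 0.17; edgeR adjusted p = 0.0498). Both were named because the count is small. Solyc02g062960 lost its call without the second or the third Dark 8 h library or the first or the third Dark 4 h library (edgeR adjusted p between 0.0558 and 0.15). gene:Solyc01g010185.1 lost it without the first or second Dark 8 h library or any one Dark 4 h library (edgeR adjusted p between 0.0909 and 0.209), and also without the filter on low counts (0.058) or with RLE scaling (0.0607).

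Against Light 0 h, the next time in the cycle, GMUCT was higher at Dark 8 h in 2 of the 197 genes (1.02%, background 2.34%) and lower in 9 (4.57%, background 3.91%). The median log2 change was -0.10, against 0.02 for all genes tested, and 79 of the 197 (40.1%) were above 0, against 52.5%. These values hold under TMM scaling, and under plain CPM the median of all genes itself moved to 0.17. In mRNA every one of these genes is higher at Dark 8 h than at Light 0 h by the rule. Without the first or second library of either time 5 genes were lower. Those higher were 4 without the first Dark 8 h library, 1 without the second and 0 by edgeR without the first or the second Light 0 h library, where 9 and 10 had an unadjusted p under 0.05. With all libraries DESeq2 called 3 higher. A fit of these 2 times alone called 0 higher by edgeR, with 11 at an unadjusted p under 0.05, and 2 lower.

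The 2 genes that were higher than at Light 0 h were Solyc12g008650, described above, and Solyc06g054620, with 10.6, 11.7 and 10.7 CPM of GMUCT at Dark 8 h, against 4.73, 5.20 and 7.36 CPM at Light 0 h (log2 change 0.93 ± 0.21; edgeR adjusted p = 0.0112). Without the first or the second Light 0 h library the edgeR adjusted p of Solyc06g054620 was 0.0668 or 0.0581.

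Among the 9 that were lower, Solyc10g086410, described above in mRNA, had 182, 232 and 186 CPM of GMUCT at Dark 8 h, against 322, 447 and 294 CPM at Light 0 h (-0.83 ± 0.18; edgeR adjusted p = 0.00953, 0.0621 without the second Light 0 h library and 0.0863 in a fit of these 2 times alone). Against the mean of the other times its change was 0.14 ± 0.14 (edgeR adjusted p = 0.489). The largest fall was that of Solyc04g014600, at rank 76, chosen after its values were seen. It had 8.82, 10.1 and 5.82 CPM of GMUCT at Dark 8 h, against 29.3, 32.1 and 19.6 CPM at Light 0 h (-1.71 ± 0.29; edgeR adjusted p = 0.00139), and the call held without any one library of these 2 times. Against the 3.75, 2.30 and 1.53 CPM at Dark 4 h the same gene was higher (1.70 ± 0.31; edgeR adjusted p = 0.00536, and 0.105 in a fit of these 2 times alone). In mRNA it had 48.2, 43.6 and 103 CPM at Dark 8 h, against 46.4, 39.6 and 35.2 CPM at Light 0 h, with overlap. The libraries of the 2 times overlapped in mRNA and stood apart in GMUCT.

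Against the mean of the other times, the genes at ranks 1, 2 and 4 did not pass the test, and Solyc02g084240 was named because it had not passed. Solyc07g005630 had 15.9, 26.2 and 2.18 CPM of GMUCT at Dark 8 h, against 0.282, 2.66 and 21.2 CPM as the lowest, median and highest of the others (1.93 ± 0.77; edgeR adjusted p = 0.0806). Its change was 1.87 (edgeR adjusted p = 0.172) without the first Dark 8 h GMUCT library, 1.22 (0.45) without the second and 2.45 (0.0424) without the third. Solyc12g044190 had a change of 1.06 ± 0.56 (edgeR adjusted p = 0.186) at 0.426 to 1.22 CPM at Dark 8 h. Solyc03g114290 had 16.2, 10.6 and 11.4 CPM at Dark 8 h, against 7.61, 11.03 and 15.8 CPM (0.26 ± 0.17; edgeR adjusted p = 0.277). Solyc02g084240 had 382, 336 and 485 CPM at Dark 8 h, against 122, 454 and 671 CPM (0.15 ± 0.15; edgeR adjusted p = 0.515).

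**Figure D4:**
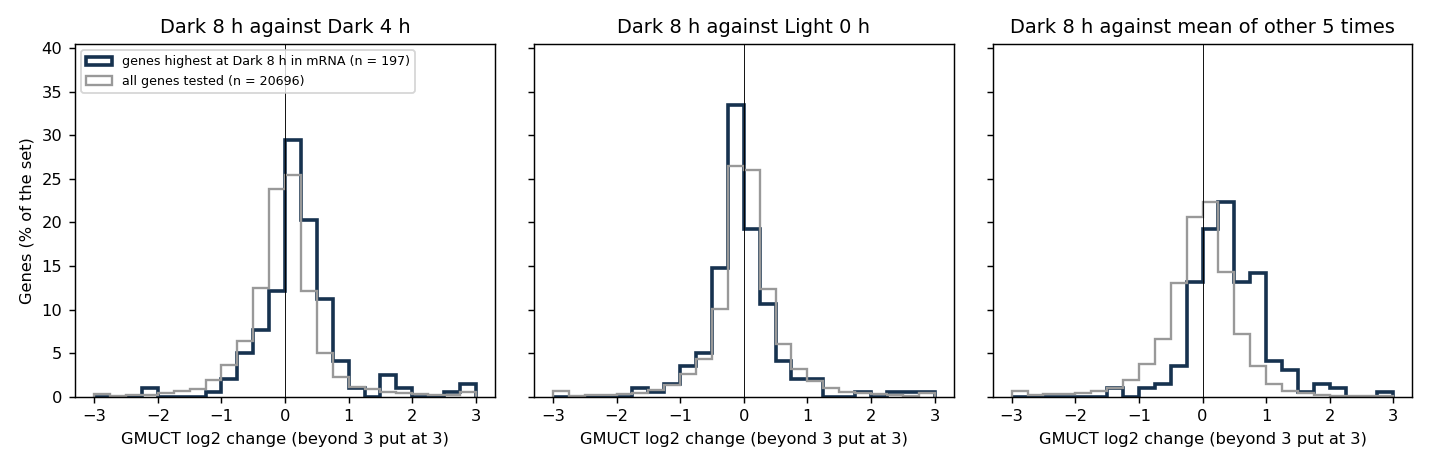
Distribution of GMUCT log2 changes at Dark 8 h against Dark 4 h, Light 0 h and the mean of the other 5 times, as the percentage of genes in each bin, for 197 genes highest at Dark 8 h in mRNA and for all 20696 genes tested. The medians of the 197 genes are 0.20, -0.10 and 0.34, and those of all genes lie between -0.01 and 0.02.

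The highest GMUCT mean was that of Dark 8 h or of Light 0 h in most of these genes, and which of the 2 led depended on scaling. With TMM-scaled CPM, 51 of the 200 genes (25.5%) had it at Dark 8 h and 83 (41.5%) at Light 0 h, against 14.4% and 18.2% of all genes tested. With CPM by the plain sum of counts, 79 (39.5%) had it at Dark 8 h and 35 (17.5%) at Light 0 h, against 18.8% and 7.18% of all genes. The change of scaling moves the median GMUCT difference of all genes between Dark 8 h and Light 0 h to 0.17 under plain CPM, against 0.02 under TMM. Dark 4 h held 26 genes (13%) under TMM and 48 (24%) under plain CPM, near the 12.8% and 23.4% of all genes. Under plain CPM it held more of the 200 genes than Light 0 h did. Of the genes highest at Light 0 h in mRNA, 134 of 200 had their highest GMUCT at their own time under TMM and 109 under plain CPM, and of those highest at Dark 4 h, 38 and 58. No test was run between these lists.

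**Figure D5:**
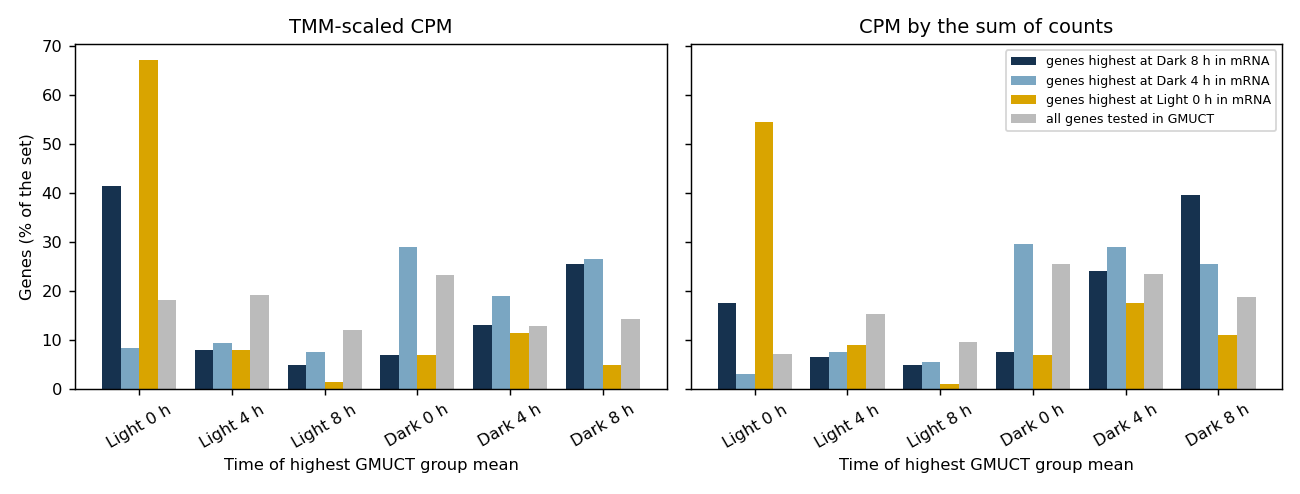
Percentage of genes with their highest GMUCT group mean at each of 6 times, under TMM scaling (left) and plain CPM (right), for 3 lists of 200 genes and all 20696 genes tested. Among genes highest at Dark 8 h in mRNA, Light 0 h leads on the left with 41.5% and Dark 8 h on the right with 39.5%.

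Over the 6 group means, Pearson's r between mRNA and GMUCT of a gene had a median of 0.54 in the 197 genes, with quartiles of 0.22 and 0.76, against 0.54 in 12427 genes tested in both assays with at least 10 CPM, with quartiles of 0.13 and 0.78. It was above 0 in 170 of the 197 (86.3%), against 80.1%, and is given as a description with no p.

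The median TMM-scaled GMUCT level over the 200 genes was 35.1 CPM at Light 0 h, 26.6 CPM at Light 4 h, 26.2 CPM at Light 8 h, 21.8 CPM at Dark 0 h, 29.0 CPM at Dark 4 h and 34.3 CPM at Dark 8 h. Medians under plain CPM are not given, so nothing is read from the order of Light 0 h and Dark 8 h. The ratio set TMM-scaled GMUCT over mRNA CPM by the plain sum of counts, with 1 CPM added to each. The median of log2 GMUCT over mRNA was 0.43, 0.68 and 0.72 at Light 0, 4 and 8 h, and 0.02, 0.37 and -0.25 at Dark 0, 4 and 8 h. Over all 19161 genes tested in both assays it lay between 0.32 and 0.41 at every time. The ratio has the mRNA that chose the genes in its denominator, so its low value at Dark 8 h is a description alone. In the 54 genes without overlap in mRNA the median ratio was -1.09 at Dark 8 h, against -0.38 at Light 0 h, and in the other 146 it was 0.14 at Dark 8 h, against 0.64 at Light 0 h.

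In tomato identifiers of this form the digits after Solyc give the chromosome. The 200 genes lie on all 12 numbered chromosomes, from 10 genes (5%) on chromosome 5 and on chromosome 10 to 26 (13%) on chromosome 2. Of the genes tested in GMUCT, 6.75% lie on chromosome 5, 6.59% on chromosome 10 and 10.8% on chromosome 2. Only 2 pairs are neighbours by number, Solyc06g054610 with Solyc06g054620 and Solyc11g008010 with Solyc11g008020. The prefix gene:, which the deposited tables give to part of the identifiers, was carried by 26 of the 200 (13%), against 11% of the 1919 genes they were ranked among and 18.8% of the genes tested in GMUCT.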

How the data were processed

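The authors deposited 1 table of whole-number counts for each library, with no normalisation, for 34075 identifiers, beside 5 counters of reads outside genes that were left out. The submitters' processing notes name cutadapt, STAR 2.4.2a and HTSeq. Not given in the sources used here are settings, strand, build and annotation, and reads shared by genes that overlap on opposite strands may stand under either gene. Groups came from the sample labels.

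From these counts, mRNA CPM used the plain sum of gene counts, and GMUCT CPM used library sizes scaled by trimmed mean of M values (TMM). GMUCT was fitted with edgeR 4.0.16 in R 4.3.3 (filterByExpr, glmQLFit and glmQLFTest) on 18 libraries in 6 group means. The SE of a log2 change is its size over the square root of F. The fit was tested on simulated data with seeded changes. DESeq2 1.42.0 was an alternative. Other alternatives were no filter, RLE scaling, a replicate block, a fit of the 2 groups compared and other ways to choose the 200 genes. Single libraries of the 2 times compared were also left out in turn. For the mean of the other times only Dark 8 h libraries were left out, and for the test among 6 times each replicate number.

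Genes and lists were chosen with earlier results of these data known. Genes named were, at most 2 each, the first by rank, those higher than the mean of the other 5 times with at least 10 CPM and no overlap, those lower, and those of highest mRNA CPM that did not pass, with those at ranks 199 to 202. Others are named as chosen after their values were seen. Lists of gene functions and promoter motifs were not used, because no identifier had a match in the reference table.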

Additional observations from a re-analysis of the deposited data

How the results depend on the processing

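Of the values recomputed for counts of genes and for the choice of the list, 63 stayed within 1.5 times the reported count and 36 did not. The 3 settings of the GMUCT fit that change no library (no filter, RLE scaling and DESeq2) moved few counts. Genes lower than at Dark 4 h, reported as 2, were 1 without a filter, 1 with RLE scaling and 4 with DESeq2. Genes higher than at Dark 4 h, reported as 11, were 24 with DESeq2. Genes lower than the mean of the other 5 times, reported as 1, were 2 with DESeq2. A fit of the 2 groups compared gave 0 genes in either direction against Dark 4 h (40 higher and 9 lower at an unadjusted edgeR p under 0.05), and 0 higher (11 at that p) and 2 lower ones against Light 0 h. Leaving out 1 library or replicate number at a time gave 84 to 121 genes changed among the 6 times, 2 to 18 genes higher and 0 to 3 lower against Dark 4 h, 0 to 4 higher and 5 to 9 lower against Light 0 h, and 43 to 67 higher and 1 to 2 lower than the mean of the other times. For that mean only Dark 8 h libraries were left out, so its dependence on single libraries of the other times was not tested. Lists made without the third Dark 8 h mRNA library shared 105 genes and held 6 genes higher and 1 lower than at Dark 4 h, and the list without the second held 1 lower than at Dark 4 h and 0 lower than the mean. Among named genes with no call against the mean of the other times, 5 changed sign when a Dark 8 h library was left out: the log2 change ran from -0.00826 (without the third) to 0.262 in Solyc02g084240, from -0.0333 (without the second) to 0.256 in Solyc08g006570, from -0.217 to 0.197 (without the first) in Solyc02g094120, from -0.446 to 0.0368 (without the second) in Solyc02g062960 and from -0.094 (without the second) to 0.28 in Solyc04g014600. The replicate block gave 131 genes changed, 13 higher and 2 lower than at Dark 4 h, 2 and 9 against Light 0 h, and 70 and 2 against the mean. Deviations of Dark 8 h libraries from their group mean correlated between -0.42 and 0.40 with those of same-numbered libraries of other times. Without pairs of unlike number beside them, these values cannot show whether a number marks a shared batch. The main fit did not pair the libraries. Where a count moved, the cause was not tested. Few reads limit Solyc03g113130 and Solyc12g044190, both near or below 1 CPM of GMUCT.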
